A study of Homo sapiens with 48 samples.

Results

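Keratins 8, 18, 19, 7, 15, 5, 10 and 80 were followed at the transcript level in 22Rv1, a human castration-resistant prostate cancer cell line, and in 5 lines derived from it. They are 8 of the 61815 genes counted, and they were taken by symbol as the keratins usually used to tell luminal from basal epithelium, with a suprabasal keratin (KRT10) and KRT80 beside them. The list was drawn up with earlier results of these data known. KRT15 was chosen by its own values in these data, namely its rise with SNX631 and its near absence from vehicle-treated parental cells, so those values are given as a description without a test. Of the 8 genes, 7 had enough counts to be tested. KRT5 did not, and it is given by its counts only.

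RNA was sequenced from 48 cultures in 16 groups of 3 biological replicates. The parental cells are named Rv1-WT, and Rv1-Luc denotes the same cells after lentiviral transfer of firefly luciferase. For the dKO lines CDK8 and CDK19, the kinases of the Mediator complex, were both knocked out by CRISPR/Cas9 and 1 kinase was put back by lentivirus: wild-type CDK8 in dKO-8, kinase-dead CDK8 in dKO-8M, wild-type CDK19 in dKO-19 and kinase-dead CDK19 in dKO-19M. The 2 lines with CDK8 were made from knockout cells that had first received an empty lentiviral vector, which those with CDK19 had not. Fetal bovine serum (FBS) was used for all lines, and for Rv1-WT and Rv1-Luc also serum treated with charcoal to remove androgen (CSS), in which cells were passaged once beforehand. In each setting cells were given 500 nM SNX631, an inhibitor of CDK8 and CDK19, or 0.1% DMSO as vehicle, for 72 hours. Every kinase form is represented by 1 line, so the effect of a kinase form and other differences between lines cannot be told apart when lines are compared.

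Keratins are the intermediate filament proteins of epithelial cells. A filament is built from obligate pairs of an acidic type I keratin (here KRT18, KRT19, KRT15 and KRT10) and a basic type II keratin (KRT8, KRT7, KRT5 and KRT80), and the pairs differ between tissues and cell layers. In the prostate gland the luminal secretory cells carry KRT8 and KRT18, often with KRT19, whereas the basal cells below them carry KRT5, KRT14 and KRT15 and depend on the transcription factor TP63. KRT7 belongs to simple and ductal epithelia, KRT10 to the upper layers of stratified epithelium, and KRT80 to a range of epithelia in which it lies near desmosomes.

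The promoters of the 2 members below are shown because both transcripts moved in the comparisons that follow, KRT8 upward and KRT10 downward with SNX631. Each is the RefSeq window (GRCh38.p14) of 300 bases, from 250 before to 50 after the annotated start, written 5′ to 3′ on the gene's strand. KRT10 lies at chr17:40822565-40822864 and KRT8 at chr12:52926420-52926719, both on the minus strand. Capitals mark TATAAA, the TATA box letters, which were searched for on both strands. Of 35097 such promoters, 11.5% hold TATAAA.
KRT10: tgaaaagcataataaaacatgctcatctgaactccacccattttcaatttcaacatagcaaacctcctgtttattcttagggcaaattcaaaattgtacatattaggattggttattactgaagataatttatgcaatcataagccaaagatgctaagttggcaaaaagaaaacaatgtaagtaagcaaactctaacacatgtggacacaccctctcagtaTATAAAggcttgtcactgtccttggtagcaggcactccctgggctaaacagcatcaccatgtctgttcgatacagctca
KRT8: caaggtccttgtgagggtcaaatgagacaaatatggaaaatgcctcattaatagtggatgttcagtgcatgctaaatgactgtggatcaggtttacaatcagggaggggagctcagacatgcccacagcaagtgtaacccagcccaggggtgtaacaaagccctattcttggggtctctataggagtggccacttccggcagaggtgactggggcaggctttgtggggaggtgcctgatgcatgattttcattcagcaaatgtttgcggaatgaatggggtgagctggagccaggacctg
The KRT10 window holds TATAAA starting 29 bases before the start site, and the KRT8 window does not hold these letters. The KRT8 window belongs to a start used by 1 of its 17 annotated transcripts, and which start these cells used was not measured. Of the other 6 members only KRT5 has a window in the table, and it is not shown since its transcript was hardly counted.

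The cells carried a luminal and not a basal profile by the markers that define those types. All 10 luminal markers on the list were expressed, among them the transcription factors FOXA1 (535 to 1147 CPM as a group mean) and HOXB13 (176 to 312 CPM), where CPM is the read count scaled to a common library total after TMM adjustment. The defining basal genes were all but missing: TP63 had at most 5 counts in any library, KRT14 at most 1.5 and KRT17 at most 1. Of the 12 basal markers, 8 passed the filter on low counts, led by CD44 at up to 153 CPM, which is not specific to basal cells. KRT5 and KRT15 are therefore called basal keratins here by their known role only. A change in the level of a transcript in such cultures can come from fewer cells that carry it or from less RNA per cell, and these cannot be told apart.

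The re-expressed kinase was seen in the counts. Under vehicle in FBS CDK8 averaged 68.6 CPM in dKO-8 and 123 CPM in dKO-8M against 26.8 CPM in Rv1-WT, and CDK19 510.04 CPM in dKO-19 and 332 CPM in dKO-19M against 149 CPM. Transcripts of edited alleles are counted with the gene, so these levels do not check the loss of either kinase.

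Library totals ran from 13.2 to 18.2 M counts in Rv1-WT and from 19.3 to 31.5 M in the other lines. The files give no batch. Among replicates, the first vehicle library of dKO-19M stood apart from its mates, its chi-square over its degrees of freedom being 17.7 and 17.1 (median of all 48 pairs 2.1), as did the first vehicle library of Rv1-Luc under FBS, at 9.7 and 5.14. For keratin results that rest on either, a value without it is given where the call changed or a called value moved by over 1.5 times, and for some others. KRT8 and KRT18 have many processed pseudogenes, but the 51 listed for KRT8 held 0.252% to 2.42% of the summed counts of gene and pseudogenes in a library, and the 68 for KRT18 held 0.0414% to 0.357%.

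Per kilobase of the shortest principal transcript, KRT18 and KRT8 led in vehicle-treated Rv1-WT in FBS, at 322 and 254 CPM per kilobase, followed by KRT19 at 106, KRT7 at 31.2 and KRT10 at 3.42. The rarest were KRT80, KRT15 and KRT5, at 0.0490, 0.0274 and 0.00774 CPM per kilobase, and their libraries overlapped, so that their order is not resolved. KRT8 was above KRT18 per kilobase in 13 of the 16 groups, and in 10 when the merged length of all annotated exons was used instead, a length chosen after seeing the data. Members differed widely in how much they varied between groups. KRT18 ranged 1.94-fold, from 396 CPM in vehicle-treated Rv1-Luc in FBS to 766 CPM in SNX631-treated dKO-8. KRT8 ranged 7.88-fold, KRT10 7.27-fold and KRT19 13.5-fold. KRT7 ranged 183-fold and stood between 54.7 and 205 CPM in Rv1-WT and Rv1-Luc and between 1.12 and 5.70 CPM in the dKO lines. KRT8 was highest in the dKO lines (2115 to 3373 CPM), intermediate in Rv1-Luc (717 to 1626 CPM) and lowest in Rv1-WT (428 to 655 CPM), and KRT10 ran the other way, from 6.15 to 12.6 CPM in Rv1-WT to 1.74 to 3.80 CPM in the dKO lines. Differences between the dKO lines and the parental line are descriptions and were not tested.

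**Figure D1:**
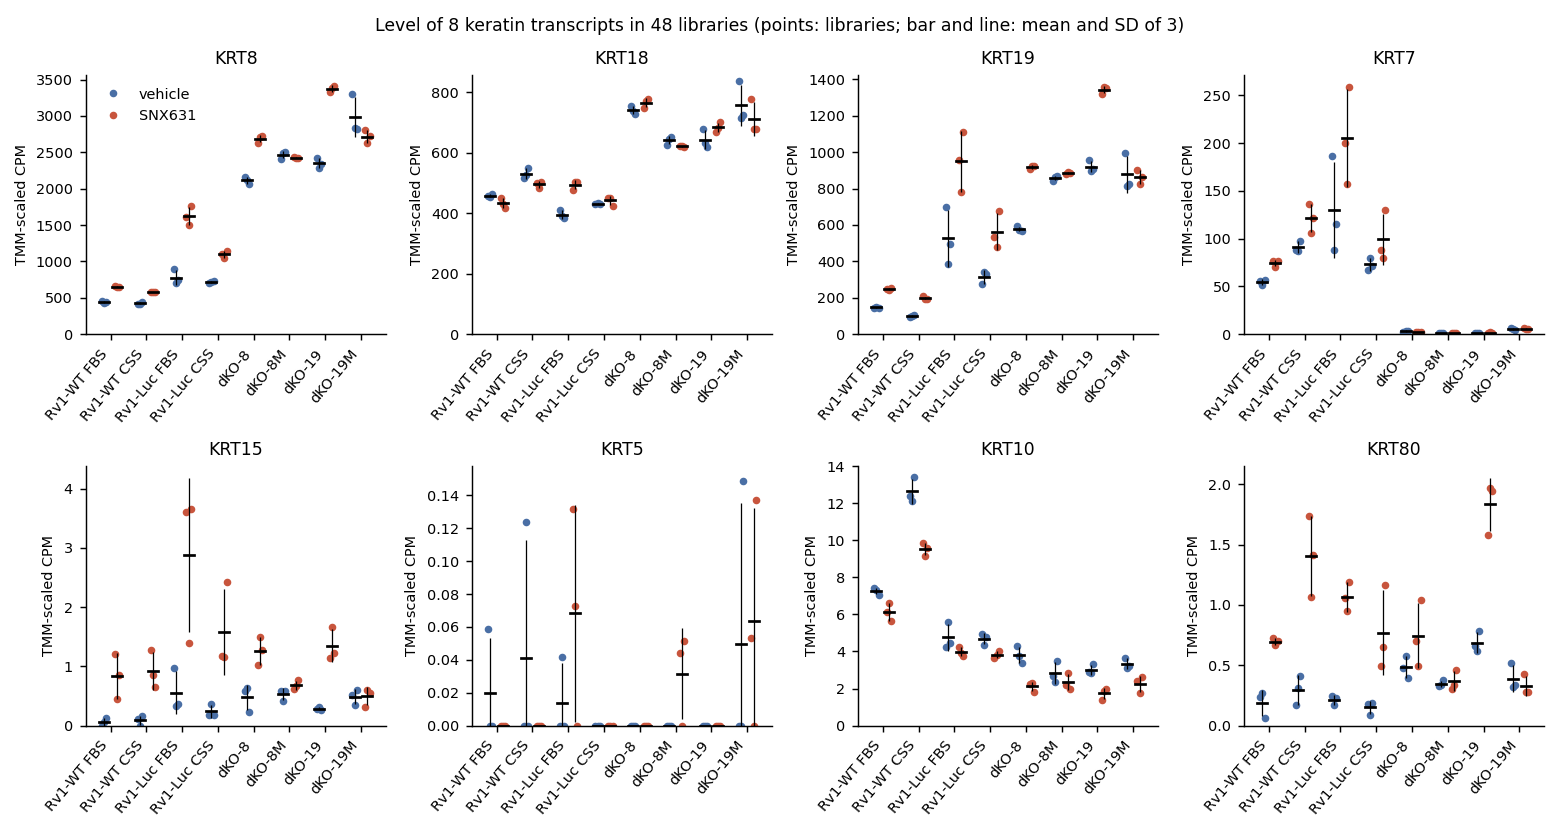
TMM-scaled CPM (linear axes from 0, a different scale in each panel) of the 8 keratins in every library, by line and serum on the horizontal axis, with vehicle in blue and SNX631 in red. Black bars are means and lines SDs of 3 libraries, with SD lines ending at the axis where they would pass below 0. KRT7 lies between 1.12 and 5.70 CPM in the dKO lines, where KRT8 is highest, and KRT5 reaches 0.149 CPM at most.

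Whether Mediator kinase inhibition alters these transcripts was asked by comparing SNX631 with vehicle in each setting. A gene was called at an edgeR quasi-likelihood FDR under 0.01 and a fold change over 1.5. Leaving KRT15 out, 15 of 36 tests in the 6 settings with an active kinase were called, 13 higher and 2 lower. The keratins were listed with earlier results of these data known, so these counts describe the list and are no test of keratins as a set. In Rv1-WT in FBS 2 of 6 keratins were called, both higher, against 2.39% of all genes called and 1.75% called higher. In Rv1-WT in CSS 2 of 6 were called, both higher (all genes 4.23%, higher 2.97%). In Rv1-Luc 4 of 6 were called in FBS (all genes 3.67%, higher 2.32%) and 3 of 6 in CSS (4.06%, higher 2.45%), each of them higher. In dKO-8 1 of 6 was higher and 1 lower (all genes 1.71%, higher 0.655%, lower 1.05%), and the same numbers held for dKO-19 (3.41%, higher 1.87%, lower 1.53%). The median log2 change of the 6 keratins lay between 0.20 and 0.75 in these settings, and that of all genes tested between 0.00 and 0.01. In the kinase-dead lines none of 12 tests was called by edgeR or by DESeq2, and 3 had an unadjusted p under 0.05, all in dKO-19M, where 0.09% of all genes were called (0.015% in dKO-8M).

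**Figure D2:**
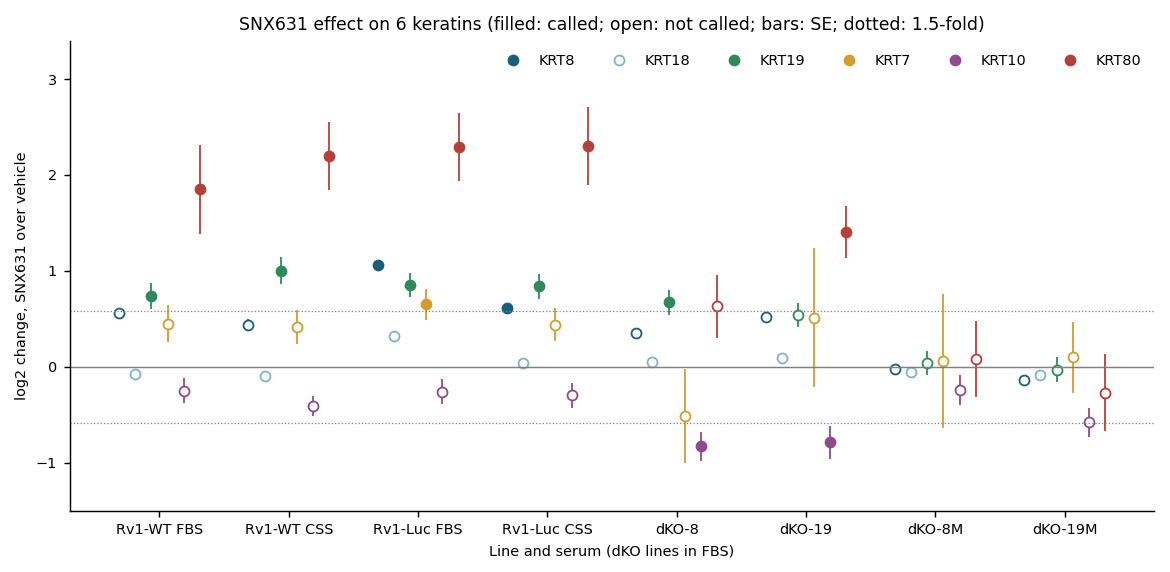
Log2 change with SNX631 over vehicle (vertical axis) for 6 keratins in 8 settings (horizontal axis). Filled points were called, open points were not, bars are standard errors of the edgeR fit and dotted lines mark a 1.5-fold change. KRT80, KRT19 and KRT8 lie above 0 in all 6 settings with an active kinase, KRT10 below 0 in all 8 settings, and no point is filled in dKO-8M or dKO-19M.

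KRT8 and KRT18 encode the partners of the luminal filament pair, and their genes are neighbours on chromosome 12 (KRT8 at 52897187-52949954 on the minus strand, KRT18 at 52948871-52952901 on the plus strand, GRCh38, GENCODE 29), with annotated spans that overlap. Their transcripts did not move alike. In Rv1-Luc in FBS KRT8 stood at 892, 700.3 and 747 CPM under vehicle and at 1614, 1505 and 1760.3 CPM under SNX631. All SNX631 libraries lay above all vehicle libraries, and the rise was 1.06 on the log2 scale (± 0.0526 SE, edgeR FDR 9.25e-23, n = 3 per group). It was 1.17 without the vehicle library that stood apart. KRT18 in the same libraries went from 411, 392 and 385 CPM to 477, 502 and 504 CPM, a log2 difference of 0.32 (± 0.0438 SE, edgeR FDR 4.33e-08) that separated the groups but fell short of the fold limit.

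In Rv1-Luc in CSS KRT8 rose by 0.61 on the log2 scale (± 0.0524 SE, edgeR FDR 1.11e-13, 3 of 3 libraries above all vehicle libraries), from 705, 716 and 732 CPM to 1098, 1049 and 1140.5 CPM. Without the third SNX631 library the difference was 0.58 and no longer passed the fold limit. In Rv1-WT the 3 libraries went from 459, 432 and 444 CPM to 664, 651 and 649 CPM in FBS, a difference of 0.56 (± 0.0535 SE, edgeR FDR 1.01e-11), and from 420.2, 418 and 447 CPM to 587, 579.5 and 581 CPM in CSS, a difference of 0.44 (± 0.0534 SE, edgeR FDR 2.96e-09). Groups did not overlap in either medium, and both differences stayed short of 1.5-fold. The same held in dKO-8 (0.35 ± 0.0518 SE, edgeR FDR 1.26e-06) and dKO-19 (0.52 ± 0.0518 SE, edgeR FDR 1.25e-11). In dKO-8M the KRT8 difference was -0.02 (± 0.0517 SE, edgeR FDR 0.941), with SNX631 libraries inside the vehicle range, and in dKO-19M it was -0.14 (± 0.0517 SE, edgeR FDR 0.163), or -0.06 without the vehicle library that stood apart.

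KRT18 was not called with SNX631 in any of the 8 settings. Its log2 differences outside Rv1-Luc in FBS lay between -0.10 and 0.09. Over the 15 comparisons of 2 groups it was called in none by edgeR or DESeq2, although 11 had an unadjusted p under 0.05. Its edgeR FDR was under 0.01 in 1 of 8 SNX631 and 3 of 4 depletion comparisons. The same held in both comparisons of kinase forms and in that of Rv1-Luc with Rv1-WT. In all of these it fell short of the fold limit only.

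A closer look at the pair, taken after these values were seen and given as a description, sets KRT8 against KRT18 within each library, which removes the scaling between libraries. Under vehicle there were 0.955 to 1.00 KRT8 counts per KRT18 count in Rv1-WT in FBS and 0.795 to 0.812 in CSS. With SNX631 the ratios were 1.48 to 1.55 and 1.15 to 1.20. In Rv1-Luc the ratio went from 1.79 to 2.17 up to 2.99 to 3.50 in FBS and from 1.64 to 1.70 up to 2.33 to 2.68 in CSS. In dKO-8 it went from 2.83 to 2.86 up to 3.51 in every library, and in dKO-19 from 3.57 to 3.79 up to 4.86 to 4.97. Thus the mean ratio was 1.23 to 1.67 times the vehicle ratio in the 6 settings with an active kinase, without overlap of libraries. The factor was 1.02 in dKO-8M, where the libraries were just apart (3.82 to 3.87 against 3.89 to 3.92), and 0.971 in dKO-19M, where they overlapped. Counts that were not whole occurred for KRT8 in 13 and for KRT18 in 3 of 48 libraries, and the strand setting of the counting is not given in the sources used here.

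**Figure D3:**
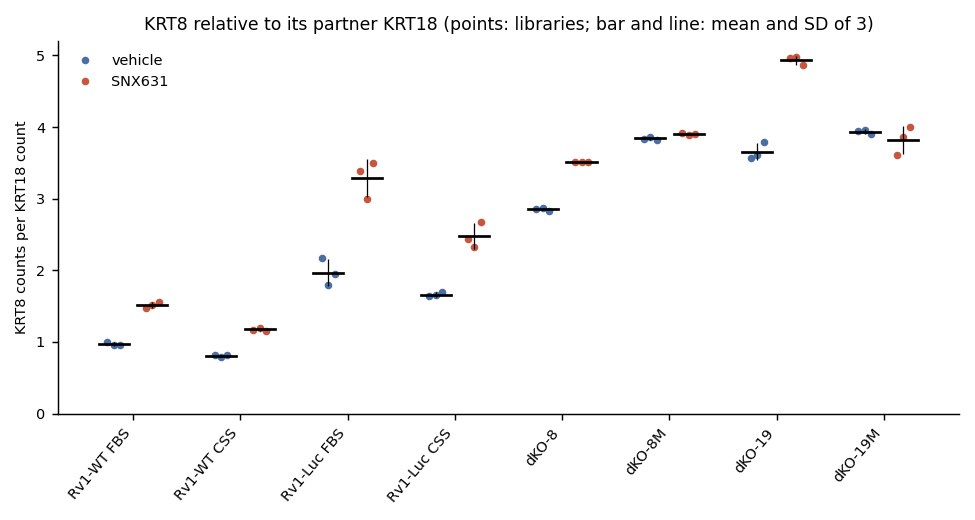
KRT8 counts per KRT18 count (vertical axis, linear from 0) in each library by line and serum, vehicle in blue and SNX631 in red, with the mean and SD of 3 libraries in black. The ratio lies near 1 in vehicle-treated Rv1-WT and between 2.83 and 4.97 in the dKO lines, and SNX631 libraries lie above vehicle libraries in the 6 settings with an active kinase.

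KRT19, the small type I keratin of simple epithelia, which lacks most of the usual tail domain (chromosome 17, 41523617-41528308, minus strand), was called higher with SNX631 in 5 settings. In Rv1-WT it went from 144, 151 and 147 CPM to 246, 240.4 and 252 CPM in FBS (log2 change 0.74 ± 0.138 SE, edgeR FDR 0.000169) and from 93.3, 98.0 and 107 CPM to 207, 195 and 195 CPM in CSS (1.00 ± 0.141 SE, edgeR FDR 1.10e-06). In Rv1-Luc in FBS its vehicle libraries were uneven, at 698, 386 and 496 CPM, and all 3 lay below the SNX631 libraries at 954, 781 and 1112 CPM. The rise there was 0.85 (± 0.128 SE, edgeR FDR 4.26e-06), or 1.11 without the vehicle library that stood apart. It was 0.84 (± 0.130 SE, edgeR FDR 6.07e-06) in Rv1-Luc in CSS. Both Rv1-Luc calls were lost when the libraries of the comparison were fitted alone, at 0.84 and 0.83. In dKO-8 the rise was 0.67 (± 0.128 SE, edgeR FDR 0.000276), from 593, 573 and 567 CPM to 904, 922 and 925 CPM. In dKO-19 the difference was 0.54 (± 0.127 SE, edgeR FDR 0.00157), short of the fold limit by the TMM scaling and past it by library size alone, where it was 0.60. SNX631 libraries lay above all vehicle libraries in these 6 settings. In the kinase-dead lines KRT19 differed by 0.04 (± 0.127 SE) in dKO-8M and by -0.03 (± 0.127 SE) in dKO-19M, at edgeR FDR 0.962 and 0.965.

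KRT7, the type II partner of simple ductal epithelia (chromosome 12, 52232520-52252186, plus strand), was called with SNX631 in Rv1-Luc in FBS only, and that call leaned on single libraries. Its 3 vehicle libraries held 186, 88.6 and 116 CPM and the SNX631 libraries 199.6, 158 and 259 CPM, so that the groups overlapped (log2 change 0.65 ± 0.166 SE, edgeR FDR 0.00374, 2 of 3 libraries above all vehicle libraries). The change was 1.01 without the first vehicle library, and the call was lost by DESeq2, with the libraries of the comparison fitted alone, and without the second or the third vehicle library or the third SNX631 library (0.44, 0.58 and 0.45). In the other 3 settings of Rv1-WT and Rv1-Luc the differences were 0.41 to 0.45, at edgeR FDR 0.0665 to 0.130. In the dKO lines KRT7 had 18 to 165 counts per library, and no SNX631 difference was called there. The antisense gene KRT7-AS, which lies within KRT7, reached 0.939 CPM at most.

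The basal keratins were rare. KRT5 (chromosome 12, 52514575-52520687, minus strand) had 0 to 3.5 counts in each of the 48 libraries, so no change could be detected at this depth. KRT15 (chromosome 17, 41513743-41522529, minus strand), a type I keratin of basal and progenitor cells, is the member that was chosen for its response, and its counts are therefore described and not tested in the settings with an active kinase. In Rv1-WT it had 0, 1 and 2 counts under vehicle and 19.5, 6 and 16 under SNX631 in FBS, and 2, 0 and 3 against 21.5, 16 and 11.5 in CSS. Summed over 3 libraries and scaled for depth, the SNX631 counts were 13.6 times the vehicle counts in FBS (42 against 3 rounded counts, exact 95% interval 4.35 to 68.7) and 9.81 times in CSS (50 against 5, 3.94 to 31.5). These intervals, from the Clopper-Pearson limits of the share of counts, cover counting error only.

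In Rv1-Luc, where the first vehicle library is the one that stood apart, KRT15 went from 24, 8 and 8 counts to 81.5, 38 and 91.5 counts in FBS and from 5, 7.5 and 4 counts to 24, 25 and 51.5 counts in CSS. In dKO-8 it went from 11.5, 12 and 6.5 to 25.5, 36.5 and 27 counts, and in dKO-19 from 6.5, 6 and 6 to 24, 39 and 24 counts. The highest group mean was 2.88 CPM. The SNX631 response in the kinase-dead lines had no part in choosing it. There KRT15 had 18.5, 9.5 and 11 counts under vehicle against 14.5, 16.5 and 15 under SNX631 in dKO-8M (log2 difference 0.34 ± 0.432 SE, edgeR FDR 0.871), and 14, 9 and 16 against 6.5, 13 and 12.5 in dKO-19M (0.02 ± 0.465 SE, edgeR FDR 0.997). Neither was called. Its counts were not whole in 18 of 48 libraries, and how such counts arose was not tested.

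KRT15 lies just downstream of KRT19 on the same strand, and KRT19 is far more abundant, so the 2 were set side by side. Per 1000 KRT19 counts there were 0.000 to 0.885 KRT15 counts in vehicle-treated Rv1-WT in FBS and 1.84 to 4.90 with SNX631. In Rv1-Luc in FBS the values were 0.732 to 1.39 and 1.78 to 3.78, in dKO-8 0.415 to 1.095 and 1.12 to 1.62, and in dKO-19 0.288 to 0.343 and 0.869 to 1.23. KRT15 was thus higher relative to KRT19 without overlap of libraries in these settings, a description of the values that chose it. In dKO-8M the ranges adjoined, at 0.489 to 0.698 against 0.699 to 0.868, and in dKO-19M they overlapped, at 0.437 to 0.719 against 0.354 to 0.736.

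KRT10, the type I keratin of differentiating suprabasal cells (chromosome 17, 40818117-40822595, minus strand), went the other way. It fell in dKO-8 from 4.27, 3.76 and 3.37 CPM to 2.23, 2.28 and 1.84 CPM (log2 change -0.83 ± 0.153 SE, edgeR FDR 5.06e-05) and in dKO-19 from 2.87, 2.82 and 3.32 CPM to 1.39, 1.89 and 1.95 CPM (-0.79 ± 0.170 SE, edgeR FDR 0.000307). All SNX631 libraries lay below all vehicle libraries in both. In Rv1-WT in CSS the difference was -0.41 (± 0.107 SE, edgeR FDR 0.00221), short of the fold limit. In Rv1-WT in FBS and in Rv1-Luc the differences lay between -0.30 and -0.25, at edgeR FDR 0.0893 to 0.213. KRT10 was also lower in the kinase-dead dKO-19M, by -0.58 (± 0.154 SE, edgeR FDR 0.026, 3 of 3 libraries below all vehicle libraries), which did not pass either limit, and by -0.24 (± 0.158 SE, edgeR FDR 0.673) in dKO-8M. Its SNX631 effect did not differ between active and dead forms at the threshold, with differences of -0.58 (± 0.221 SE, edgeR FDR 0.110) for CDK8 and -0.21 (± 0.232 SE, edgeR FDR 0.671) for CDK19. The antisense gene KRT10-AS1 ranged from 0.0990 to 2.36 CPM between groups and was highest in the same group as KRT10.

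KRT80, a type II keratin that associates with desmosomes and the cell cortex (chromosome 12, 52168996-52192000, minus strand), showed the largest log2 changes of the 6 tested keratins with SNX631 in the 4 parental and Rv1-Luc settings, on few counts. In Rv1-Luc in FBS it had 6.5, 4.5 and 5 counts under vehicle and 23.5, 25.5 and 30.5 under SNX631 (log2 change 2.29 ± 0.355 SE, edgeR FDR 8.44e-07). In CSS it went from 5, 2 and 3.5 to 10, 13.5 and 25 counts (2.30 ± 0.410 SE, edgeR FDR 1.25e-05). In Rv1-WT it went from 3, 5 and 8 to 30, 20 and 25.5 counts in CSS (2.20 ± 0.354 SE, edgeR FDR 1.52e-06) and from 4, 4 and 1 to 12, 9 and 13 counts in FBS (1.85 ± 0.466 SE, edgeR FDR 0.00321). The call in FBS was lost by DESeq2 and without the third vehicle library, where the change was 1.46, or the first or the third SNX631 library. In dKO-19 it rose by 1.40 (± 0.271 SE, edgeR FDR 5.75e-05), from 14, 12 and 18.5 to 33, 46 and 38 counts. SNX631 libraries lay above all vehicle libraries in these 5 settings. In dKO-8 the difference was 0.63 (± 0.330 SE, edgeR FDR 0.230) with overlapping libraries, in dKO-8M 0.08 (± 0.400 SE, edgeR FDR 0.986) and in dKO-19M -0.27 (± 0.399 SE, edgeR FDR 0.821).

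Markers of other cell types were read beside these changes, since some moved with SNX631 as well. Of the 6 fibroblast markers COL3A1 and LUM were called higher in the 4 Rv1-WT and Rv1-Luc settings and COL3A1 in dKO-19. The summed fibroblast level was 15.7 to 16.7 CPM under vehicle and 21.9 to 22.8 CPM under SNX631 in Rv1-WT in FBS, and 9.59 to 11.4 against 12.7 to 14.6 CPM in Rv1-Luc in FBS. Of the 6 neuroendocrine markers CHGB was called higher in 5 settings, with summed levels of 84.0 to 88.0 against 101 to 109 CPM in Rv1-WT in FBS. In Rv1-Luc in CSS the neuroendocrine sums overlapped, at 114 to 119 against 112 to 125 CPM. They also overlapped in dKO-19, where CHGB was called higher, at 77.4 to 84.5 against 70.3 to 78.9 CPM. In dKO-8 the sums lay lower with SNX631, at 55.4 to 56.4 against 48.5 to 52.6 CPM. Of the 12 basal markers CD44 was called higher in both Rv1-Luc settings and dKO-19 and COL17A1 in Rv1-WT in CSS and dKO-19, while LAMA3 was called lower in Rv1-WT in CSS and both Rv1-Luc settings and ITGB4 in Rv1-Luc in CSS. Of the 8 club or hillock markers PIGR was called higher in Rv1-WT and in Rv1-Luc in CSS and PSCA lower in dKO-19, and the keratins of that list, KRT13 and KRT4, had at most 2 and 4 counts. TMPRSS2, an androgen-induced luminal gene, was called higher in the 6 settings with an active kinase. Endothelial and leukocyte markers summed to at most 0.986 and 1.30 CPM. No marker on these lists was called in dKO-8M or dKO-19M, where 0.015% and 0.09% of all genes were called. In the 6 settings with an active kinase 1.71% to 4.23% of all genes were called. The part of these markers in the keratin results was not tested.

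Whether androgen depletion alters the keratins was asked by comparing CSS with FBS in Rv1-WT and Rv1-Luc. In Rv1-WT 2 of 6 keratins were called higher under vehicle, where 10.9% of all genes were called and 6.09% called higher, and 3 of 6 under SNX631 (all genes 7.83%, higher 4.86%). In Rv1-Luc 2 of 6 were called lower under vehicle (all genes 1.49%, lower 0.81%) and 2 of 6 under SNX631 (1.51%, lower 0.92%). The member that separated the lines most was KRT7. In vehicle-treated Rv1-WT it rose in CSS from 55.9, 51.2 and 56.9 CPM to 87.8, 87.3 and 98.0 CPM (log2 change 0.73 ± 0.191 SE, edgeR FDR 0.00176, 3 of 3 libraries above all FBS libraries). In vehicle-treated Rv1-Luc it fell from 186, 88.6 and 116 CPM to 67.2, 80.2 and 71.7 CPM (-0.84 ± 0.174 SE, edgeR FDR 0.000832, 3 of 3 libraries below all FBS libraries). Without the first FBS library of Rv1-Luc this fall was -0.49 and was not called. Under SNX631 KRT7 rose by 0.70 in Rv1-WT (± 0.181 SE, edgeR FDR 0.00207) and fell by 1.05 on the log2 scale in Rv1-Luc (± 0.169 SE, edgeR FDR 3.23e-05). Either rise in Rv1-WT lost its call without 1 of 2 libraries, at edgeR FDR 0.0106 to 0.0160. The difference between the lines in the vehicle effect was -1.57 (± 0.258 SE, edgeR FDR 8.63e-06, in a comparison where 8.65% of all genes were called and 4.04% called lower), and -1.22 without the first FBS library of Rv1-Luc, which remained called.

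KRT10 rose with depletion in Rv1-WT, from 7.40, 7.29 and 7.07 CPM to 12.4, 12.1 and 13.4 CPM under vehicle (log2 change 0.80 ± 0.113 SE, edgeR FDR 2.37e-08) and by 0.64 under SNX631 (± 0.120 SE, edgeR FDR 1.41e-05), or 0.58 and not called without the third FBS library. In Rv1-Luc its libraries overlapped, with differences of -0.02 (± 0.125 SE) under vehicle and -0.06 (± 0.135 SE) under SNX631. The difference between lines was -0.82 (± 0.169 SE, edgeR FDR 8.55e-05).

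KRT19 fell with depletion in Rv1-Luc, by 0.74 on the log2 scale under vehicle (± 0.129 SE, edgeR FDR 9.85e-05), to 273, 341 and 332 CPM, and by 0.75 under SNX631 (± 0.128 SE, edgeR FDR 6.73e-05). The fall under vehicle was -0.48 and was not called without the first FBS library. In Rv1-WT the difference was -0.56 under vehicle (± 0.144 SE, edgeR FDR 0.00146), short of the fold limit, and -0.31 under SNX631 (± 0.135 SE, edgeR FDR 0.0704). The difference between the lines in this effect was -0.18 (± 0.193 SE, edgeR FDR 0.535). The 4 Rv1-Luc calls, for KRT7 and KRT19, were all lost when the libraries of each comparison were fitted alone, with log2 changes from -1.05 to -0.75.

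KRT80 was called higher with depletion in SNX631-treated Rv1-WT (1.00 ± 0.305 SE, edgeR FDR 0.0063), a call that was lost in 5 of the 6 fits with 1 library left out, at 0.82 to 1.02, and by DESeq2. KRT8 differed by -0.06 and -0.17 in Rv1-WT and by -0.12 in vehicle-treated Rv1-Luc, and stood 0.57 lower in SNX631-treated Rv1-Luc (edgeR FDR 3.00e-12), at the edge of the fold limit. KRT18 differed by -0.16 to 0.21 in the 4 depletion comparisons. For KRT15 the depletion comparisons share libraries with the values that chose it, so its log2 differences are a description with no test: -1.24 and -0.84 in Rv1-Luc under vehicle and SNX631 and 0.10 in SNX631-treated Rv1-WT. The -1.24 became -0.55 without the Rv1-Luc library that stood apart. The -0.84 became -1.19 without the second FBS library and -1.29 without the third CSS library.

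**Figure D4:**
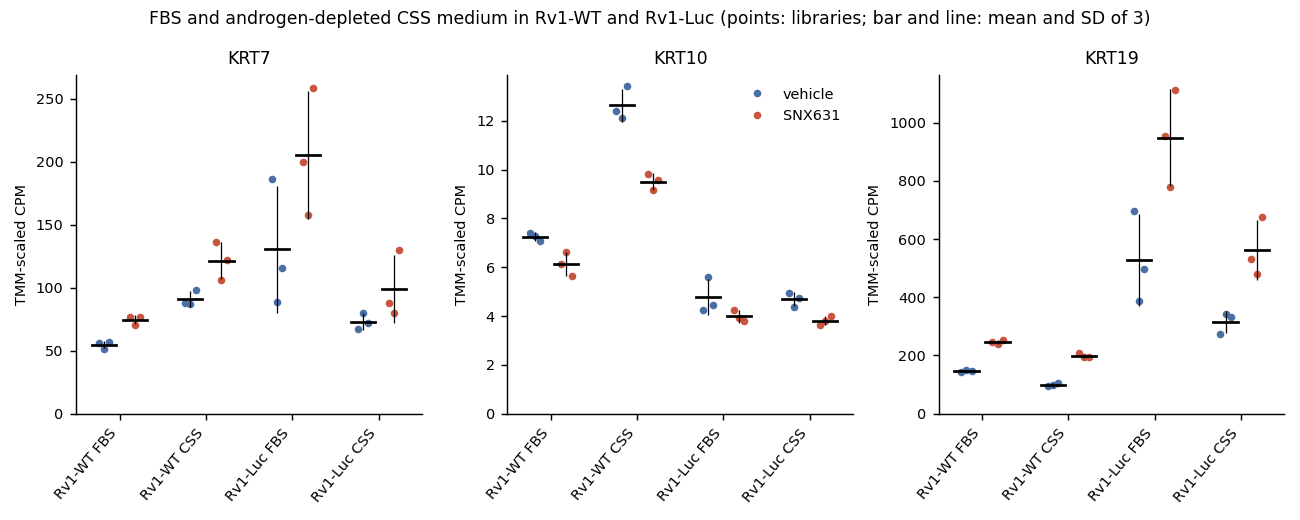
TMM-scaled CPM (vertical axes, linear from 0) of KRT7, KRT10 and KRT19 in each library of the parental and luciferase lines in FBS and in androgen-depleted CSS, vehicle in blue and SNX631 in red, with the mean and SD of 3 libraries in black. Under vehicle KRT7 rises in CSS from 51.2 to 56.9 CPM up to 87.3 to 98.0 CPM in Rv1-WT and lies lower in CSS in Rv1-Luc, and KRT10 is higher in CSS in Rv1-WT only.

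In FBS under vehicle Rv1-Luc was compared with its parental line. KRT8 (log2 difference 0.81 ± 0.0533 SE, edgeR FDR 1.55e-18), KRT19 (1.84 ± 0.137 SE, edgeR FDR 1.97e-13) and KRT7 (1.25 ± 0.185 SE, edgeR FDR 6.94e-07) were higher in Rv1-Luc, and KRT10 was lower (-0.60 ± 0.125 SE, edgeR FDR 4.57e-05), so that 4 of 6 keratins were called against 17.8% of all genes (8.63% higher, 9.16% lower). All 3 Rv1-Luc libraries lay beyond the Rv1-WT libraries for each. The share of all genes that separate in this way was not counted, here or in the other comparisons. KRT18, the partner of KRT8, differed by -0.21 (± 0.0441 SE, edgeR FDR 5.66e-05). Without the Rv1-Luc library that stood apart, KRT8 was at 0.70, KRT19 at 1.58 and KRT7 at 0.90, all still called, and KRT10 at -0.53, which was not. The KRT10 call was also lost by library size alone (-0.57) and with the libraries of the comparison fitted alone (-0.57), where the KRT7 call was lost as well (1.29). KRT15 had 40 rounded counts in Rv1-Luc against 3 in Rv1-WT, a depth-scaled ratio of 8.94 (exact 95% counting interval 2.85 to 45.2), which is a description since its parental level chose it. Of the 40 counts 24 came from the Rv1-Luc library that stood apart, and each of the others held 8.

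The kinase-dead form was compared with the active form under vehicle. In dKO-8M against dKO-8, where 7.02% of all genes were called, none of 6 keratins was called by edgeR and 1 by DESeq2, and 5 had an unadjusted p under 0.05. KRT19 was nearest, at 843, 864 and 867 CPM against 593, 573 and 567 CPM (log2 difference 0.57 ± 0.127 SE, edgeR FDR 0.000634), without overlap and short of the fold limit. KRT7, which DESeq2 called, held 49, 27 and 18 counts in dKO-8M against 57, 74 and 98 in dKO-8 (-1.44 ± 0.563 SE, edgeR FDR 0.0508). In dKO-19M against dKO-19, where 7.6% of all genes were called and 3.72% called higher, KRT7 was the 1 keratin of 6 called. It had 165, 148 and 107 counts against 24, 19 and 29 (2.22 ± 0.533 SE, edgeR FDR 0.00125), and without the first dKO-19M library the difference was 2.10 at edgeR FDR 0.0142, which was not called. KRT7 thus stood lower in the kinase-dead line of one pair and higher in that of the other. KRT8 differed by 0.22 (edgeR FDR 0.000563) and 0.35 (edgeR FDR 3.14e-07) in the 2 pairs, both short of the fold limit. KRT15 stood 0.21 and 0.79 apart on the log2 scale, a description since the vehicle libraries of the active forms had a part in its choice.

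Differences between effects were tested directly in 7 comparisons, with 42 tests for the 6 keratins and 3 calls, of which the depletion effects on KRT7 and KRT10 were given above. The SNX631 effect on KRT8 was larger in dKO-19 than in dKO-19M by 0.66 on the log2 scale (± 0.0732 SE, edgeR FDR 1.25e-09), in a comparison where 2.07% of all genes were called and 1.23% called higher. It was 0.58 without the first vehicle library of dKO-19M, just short of the fold limit. For dKO-8 and dKO-8M the difference was 0.37 (± 0.0732 SE, edgeR FDR 0.000455, 0.905% of all genes called), also short of it. For KRT19 the differences were 0.62 (± 0.179 SE, edgeR FDR 0.0287) with CDK8 and 0.57 (± 0.179 SE, edgeR FDR 0.0363) with CDK19, and for KRT80 0.55 (± 0.522 SE, edgeR FDR 0.651) and 1.67 (± 0.485 SE, edgeR FDR 0.0162). Without the first vehicle library of dKO-19M the CDK19 differences were 0.47 for KRT19 (edgeR FDR 0.110) and 1.41 for KRT80 (edgeR FDR 0.0947). KRT8 responded more in Rv1-Luc than in Rv1-WT in FBS by 0.50 (± 0.0746 SE, edgeR FDR 1.01e-05) and KRT18 by 0.40 (± 0.0623 SE, edgeR FDR 1.85e-05), and KRT8 responded less in CSS than in FBS in Rv1-Luc, by -0.45 (± 0.0738 SE, edgeR FDR 0.000289). None of these 3 passed the fold limit, with 0.18% of all genes called between the lines and 0.08% between the sera in Rv1-Luc, although the KRT8 difference between the lines was 0.61 and called without the Rv1-Luc library that stood apart. The KRT19 difference with CDK8 was called by DESeq2 (0.63). The comparison of dKO-19 with dKO-8, between the 2 active kinases, called no keratin by edgeR or DESeq2, and 1 of 6 tests had an unadjusted p under 0.05 (0.885% of all genes called). Between the sera in Rv1-WT no keratin was called by edgeR or DESeq2 and none had an unadjusted p under 0.05 (0.295% of all genes called).

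The rest of the keratin family was nearly silent. Of 47 other keratin genes counted, 45 stood at or below 0.3 CPM in every group and 2, KRT81 and KRT86, passed the filter. KRT81, a hair keratin that is also found in tumour cells, averaged 0.755 CPM with SNX631 and 0.146 CPM with vehicle in Rv1-WT in CSS, and 0.287 and 0.0404 CPM in Rv1-Luc in FBS. It had at most 17.5 counts in a library. KRT81 owed its place past the filter to SNX631-treated Rv1-WT in CSS, the group where it was highest (0.480 to 0.977 CPM), so these values are a description with no test. KRT86 was not called.

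Genes that anchor keratin filaments at desmosomes and to the cortex were well expressed, and 14 of 15 were tested. With SNX631 1 of the 14 was called higher in each of the 6 settings with an active kinase, and 1 lower in Rv1-WT and Rv1-Luc in CSS, with list medians from -0.05 to 0.08. Among all genes 1.71% to 4.23% were called in these settings and 0.655% to 2.97% called higher, and the count of 1 in 14 is to be read against that. EPPK1 encodes epiplakin, which binds simple keratin filaments. It was the gene that rose in 4 of them, by 1.02 in Rv1-WT in FBS, 1.46 and 1.01 in Rv1-Luc in FBS and CSS and 0.92 in dKO-19 (edgeR FDR 6.27e-06, 2.49e-12, 4.98e-08 and 1.41e-09). PKP1, a desmosomal plakophilin, rose by 0.81 in Rv1-WT in CSS and 0.97 in dKO-8, and PPL, periplakin, fell by 0.61 on the log2 scale in both lines in CSS (edgeR FDR 0.00966 in Rv1-WT and 0.0026 in Rv1-Luc). DSC2, desmocollin, was lower in Rv1-Luc than in Rv1-WT, from 31.5 to 11.0 CPM, a log2 difference of -1.52. In the 4 genes, named for having the most calls, all 3 libraries lay beyond the other group at each of these calls. The share of all genes that separate in this way was not counted. Without the Rv1-Luc library that stood apart, EPPK1 was at 1.39 in Rv1-Luc in FBS and DSC2 at -1.49, both still called.

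Among 15 transcription factors known to govern epithelial keratin programmes, 14 were tested, and with SNX631 1 or 2 were called higher in 5 of the 6 settings with an active kinase and none lower, against the same 1.71% to 4.23% of all genes called and 0.655% to 2.97% called higher. EHF, an ETS factor of epithelial differentiation, rose in all 5: by 0.88 in Rv1-WT in FBS, from 149.5 to 276 CPM (± 0.0546 SE, edgeR FDR 5.07e-19), by 1.00 in CSS, by 1.09 and 1.26 in Rv1-Luc in FBS and CSS, and by 0.74 in dKO-19. ELF3, a related factor, rose by 0.70 in Rv1-Luc in FBS. With androgen depletion EHF fell by 0.91 in vehicle-treated Rv1-Luc on the log2 scale, while KLF4, a factor of stratified epithelium, rose by 0.96 and ELF3 by 0.72 in vehicle-treated Rv1-WT. These were the 1 of 14 called in that Rv1-Luc comparison (all genes 1.49%, lower 0.81%) and the 2 of 14 called in Rv1-WT (all genes 10.9%, higher 6.09%). In dKO-19M against dKO-19 KLF4 was higher by 1.61 and OVOL1, a regulator of epidermal differentiation, lower, at -0.93. In dKO-8M against dKO-8 KLF4 was instead lower, at -0.71 (± 0.0609 SE, edgeR FDR 1.03e-14), and OVOL1 differed by 0.00 (edgeR FDR 0.995). Of the 14, 3 were called higher and 1 lower in the CDK19 pair (all genes 7.6%) and 1 lower in the CDK8 pair (7.02%). Without the library that stood apart in each, chosen after seeing the data, KLF4 was at 1.61 in dKO-19M against dKO-19, and in Rv1-Luc EHF was at 1.18 and ELF3 at 0.84 with SNX631 in FBS and EHF at -0.82 with depletion. All of these and OVOL1 in dKO-19M against dKO-19 were still called. The median change of the 14 lay between -0.04 and 0.21 with SNX631 in the settings with an active kinase.

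Across the 16 groups the members formed patterns of their own, described by Pearson's r of group means of log2(CPM + 0.5), points that share lines and libraries. KRT8 and KRT19 ran together (r = 0.938), and KRT10 ran against both (r = -0.917 and -0.941). KRT15 and KRT80 had r = 0.732, and each r of KRT15 here includes the SNX631 values that chose it. KRT7 had r = -0.826 with KRT8, with KRT7 lowest and KRT8 highest in the dKO lines. Both were nonetheless called higher in Rv1-Luc than in Rv1-WT. Among genes that are not keratins and average at least 1 CPM, those most like KRT8 were SLC25A43 (r = 0.983), MAGEA12 (0.978) and PDLIM7 (0.974). KRT18 was matched by GID8 (0.977), STAU1 (0.973) and IL20RA (0.970), and KRT19 by KIF22 (0.977), CAB39L (0.970) and the tight junction gene CLDN4 (0.966). KRT7 was followed by GPR158 (0.983), ARMCX4 (0.979) and VSTM2A (0.973), and KRT10 by PMM1 (0.977), MTHFD2L (0.976) and COBLL1 (0.964). For the 2 rare members likeness was lower, with PTK2B (0.881), TUBA5P (0.850) and OGFRP1 (0.846) for KRT15 and HOXA13 (0.910), CERKL (0.864) and CRABP1 (0.857) for KRT80.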

How the data were processed

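RNA from 48 cultures was sequenced with the NEBNext Ultra II Directional kit. The submitters' processing notes name FastQC, cutadapt 2.8, STAR 2.7.2b, featureCounts, Subread 2.0.3, GRCh38.p13 and GRCm39, but the strand setting and annotation release are not given in the sources used here. The authors deposited expected counts per gene, of which 81.7% of values above 0 were whole numbers, in 61815 genes, and 2 transgene rows were left out. These were rounded here. Library totals were 13.2 to 31.5 M counts (median 21.4 M), and intervals cover counting error only. All 48 libraries were fitted together with edgeR 4.0.16 in R 4.3.3 (quasi-likelihood, robust, TMM factors 0.911 to 1.07, a mean per group, 32 residual degrees of freedom) after a filter on low counts (minimum 10, total 15) that left 20009 genes. A call was a Benjamini-Hochberg FDR under 0.01 over all genes tested and a fold change over 1.5, in 15 comparisons of groups and 7 of effects. Standard errors were log2 change divided by the square root of F. Replicates are described as biological by the submitters.

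The edgeR fit was tried on counts simulated from its own fitted means and spreads, with changes set in SNX631-treated dKO-8M. That trial was scored by FDR without the fold limit, and no result here rests on it. Alternatives were DESeq2 1.42.0, library size scaling, no filter, a mean of at least 1 CPM, unrounded counts, the libraries of a comparison alone, other thresholds, a replicate block, and each library left out. The keratins, marker lists, list of anchoring genes and list of regulators were chosen with earlier results of these data known. Named genes were the 8 keratins, other keratins called at least once, the 4 anchoring and 4 regulator genes called in the most comparisons, and the 3 genes most like each tested keratin.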

Additional observations from a re-analysis of the deposited data

Results flagged for a closer look

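Differences between effects that passed the threshold in their own test were the following, each with the edgeR FDR over all genes. The SNX631 effect on KRT8 was 0.66 larger on the log2 scale in dKO-19 than in dKO-19M (FDR 1.25e-09). It was 0.58 and not called without the first vehicle library of dKO-19M, which stood apart. The depletion effect under vehicle was lower in Rv1-Luc than in Rv1-WT by -1.57 for KRT7 (FDR 8.63e-06) and -0.82 for KRT10 (FDR 8.55e-05). Among the anchoring genes and regulators, the SNX631 effect on PKP1 was 1.09 larger in dKO-8 than in dKO-8M (FDR 0.000338). The SNX631 effects on EPPK1 and EHF were 0.74 (FDR 0.000459) and 0.63 (FDR 7.84e-09) larger in dKO-19 than in dKO-19M. The depletion effects on ELF3, KLF4 and EHF were lower in Rv1-Luc than in Rv1-WT, by -1.07 (FDR 3.02e-10), -0.79 (FDR 8.48e-10) and -0.94 (FDR 1.16e-13), and that on PPL was higher by 0.91 (FDR 0.00319).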

How the results depend on the processing

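No result changed direction past its threshold. SNX631 calls numbered 15, and 23 at an FDR under 0.05 without the fold limit, 10 at a mean of at least 1 CPM, 12 with only the libraries of each comparison and 13 by DESeq2. Depletion calls numbered 9, and 16 or 15 without the fold limit (FDR under 0.05 or 0.01) and 5 with only the libraries of each comparison fitted. Calls between kinase-dead and active forms numbered 1, and 7 or 6 without the fold limit, and 2 with no filter, with only the libraries of the comparison, or by DESeq2. Calls of Rv1-Luc against Rv1-WT numbered 4, and 2 with only those libraries. Differences between effects numbered 3, and 11 or 7 without the fold limit and 5 with no filter or only the libraries of the comparison. KRT15 was not called by edgeR or DESeq2 with SNX631 in dKO-8M or dKO-19M, the only comparisons that share no library with the values that chose it. Its other comparisons are descriptions, and no calls are counted for them. Leaving out 1 library gave 14 to 15, 7 to 10, 0 to 2, 3 to 4 and 2 to 4 calls in the families of calls above, in the same order. Between kinase-dead and active forms the 0 came without the first dKO-19M vehicle library and the 2 without the first dKO-8 vehicle library. Where no cause is evident from the construction of an alternative, the cause was not tested. Replicate numbers did not pair the samples (correlations of deviations -0.091 to 0.157), and a fit with the replicate block gave 15, 9, 1, 4 and 3 calls and changed no call. Depth limits KRT5, KRT15 and KRT80 most, and KRT7 in the dKO lines.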
